A study of Danio rerio with 6 samples.

Results

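The cytosolic ribosomal protein genes are those that encode the protein part of the ribosomes that translate nuclear transcripts. They were taken from the gene count table of ZMEL1 cells by name: the zebrafish symbol of the row, looked up from its Ensembl identifier, had to be rpl or rps followed by a number and optional letters, or rplp0, rplp1, rplp2 or rpsa. Kinases of the rps6k family and names with a colon were left out. This gave 77 identifiers of the 32520 in the table, under 73 symbols, of which 44 identifiers encode proteins of the large (60S) subunit and 33 encode proteins of the small (40S) subunit. Of 79 names of ribosomal proteins known from human, 70 were matched by the rule, 2 more were matched outside it, and 7 (rpl27a, rpl36a, rpl37a, rpl41, rpsa, rps4x and rps27) were not matched by name.

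ZMEL1 is a cell line from a zebrafish melanoma driven by human BRAF and lacking functional p53. The labels describe 3 samples given TGFB1 ligand at 10 ng/mL for 2 hours and 3 samples given the vehicle, 4 mM HCl with 1 mg/mL BSA, for 2 hours; all were starved for 2 hours beforehand and grown at 28 °C. The 6 columns of the count table, here called HN69 to HN74 as in its header, carry names that match no sample's labels. They were therefore all used as ZMEL1 libraries with no treatment assigned, no comparison of TGFB1 with vehicle and no test was made, and each value below is given per library or as a range with its median. The spread among the libraries may hold treatment, library and culture together, which cannot be told apart here. The labels call the samples a technical triplicate, so the libraries may not be separate cultures.

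Total counts were between 12319428 and 18582009 per library, and gene counts are given as CPM, the count divided by the library's total and multiplied by 1000000. A count of 0, taken to allow up to 3 counts, allowed up to 0.161 to 0.244 CPM. Intervals and limits cover counting error only. Of 10 melanocyte markers 6 were found by name. Among them sox10, a neural crest transcription factor, had 333 to 411 CPM and tfap2a 229 to 289 CPM. crestin, a zebrafish neural crest transcript, had 5487 to 7495 CPM. The pigment genes were lower: tyr had 19.6 to 21.9 CPM, pmela 4.11 to 7.35 CPM and dct, a pigment enzyme, 9 to 27 counts. Summed leukocyte markers had 3 to 9 counts per library, erythroid markers 0 to 4, keratinocyte markers 0 to 5 with cyt1, epcam and krt4 at 0 in all 6 libraries, iridophore markers 47 to 87, xanthophore markers 14 to 32 and muscle markers 13 to 30. No pair of libraries agreed within counting error. The mean chi-square statistic per gene was 4.61 to 41.7 over all genes and 2.68 to 12.1 over the ribosomal protein genes. For a given difference in share the statistic grows with a gene's count, so rows of very many counts can weigh heavily in the mean. The mean may thus lie far from the value of a typical gene. Each set was scaled by its own summed counts in the pair of libraries, so a change shared by a whole set is left out. The ranges are thus not on a common scale.

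A ribosome holds a single copy of most of its proteins, so the cell needs them in nearly equal numbers. The large subunit forms the peptide bond and carries the P stalk, which recruits the translation factors; the small subunit reads the messenger RNA. In vertebrates the transcripts of these genes begin with a run of pyrimidines through which mTOR signalling sets their translation, so that transcript level and protein output can part. Growing cells, tumour cells among them, are known to hold these transcripts in large amounts.

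The ribosomal protein genes gave 7.84% of all counts in HN69, 7.67% in HN70, 7.63% in HN71, 7.59% in HN72, 6.99% in HN73 and 6.68% in HN74, with a median of 7.61%. HN73 and HN74 held the lowest shares, and the highest share was 1.17 times the lowest. The 4 identifiers with the most counts in the table took 38.2%, 39.1%, 42.3%, 42.5%, 44.5% and 46.8% of all counts in the same order of libraries. Their share thus stood highest where the share of the ribosomal protein genes stood lowest. All shares in a library add up to its total, so part of this opposition is built in. The first pair, si:dkey-153m14.1 and zgc:158463, took 22.4%, 24.5%, 28.1%, 28.6%, 31.0% and 33.8%, and the next pair, which have no symbol (ENSDARG00000080337 and ENSDARG00000082753), took 15.8%, 14.5%, 14.3%, 13.9%, 13.5% and 12.98%. With those 4 identifiers left out of the totals, a choice made after seeing the data, the ribosomal protein genes gave 12.7%, 12.6%, 13.2%, 13.2%, 12.6% and 12.6% of the remaining counts. HN69, HN70, HN73 and HN74 then lay close together, below HN71 and HN72. In bulk samples fewer cells of a type and less RNA per cell cannot be told apart.

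**Figure D1:**
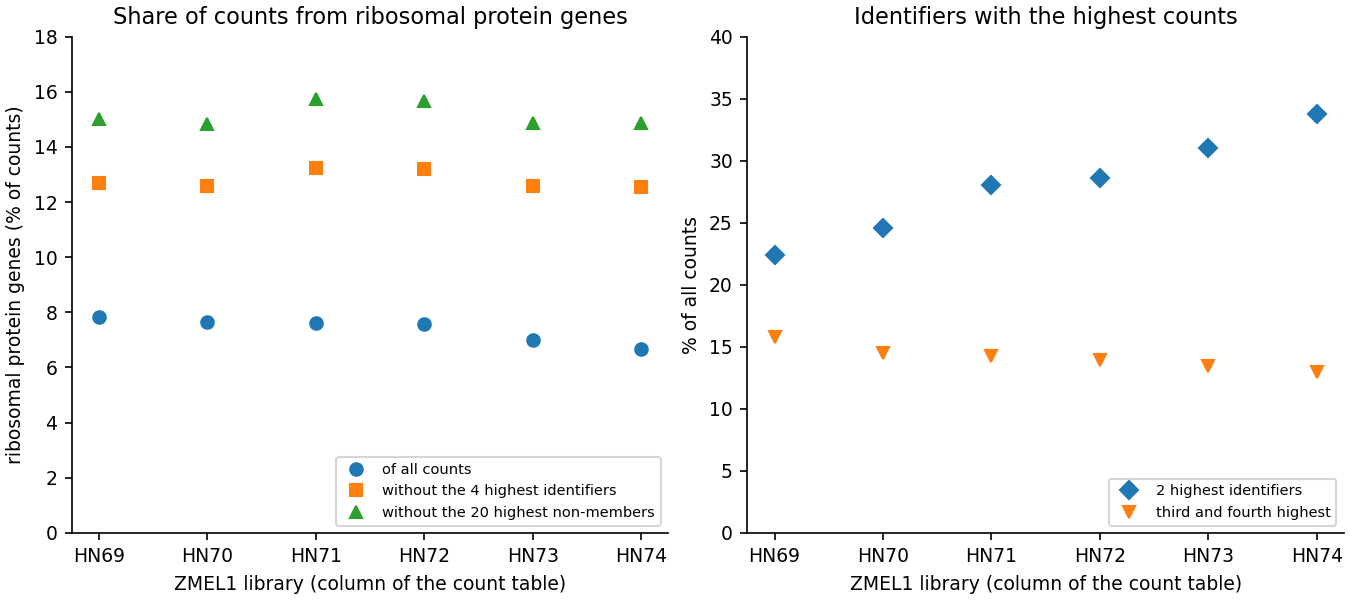
Left, percent of counts from the ribosomal protein genes in each of the 6 ZMEL1 libraries, over all counts and over totals without the 4 highest identifiers or the 20 highest other genes; right, percent of all counts from the first and the next pair of the 4 highest identifiers. The share of all counts was lowest in HN74 at 6.68%, where the first pair took 33.8% and the next 12.98%; with them left out the 6 libraries lay between 12.6% and 13.2%.

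Nearly all of the ribosomal protein genes were well covered. At least 10 counts in every library were found for 74 of the 77 (43 of the large and 31 of the small subunit), against 38.2% of all genes in the table. At least 100 counts in every library were found for 73 of the 77, against 21.7% of all genes. At least 1000 counts in every library were found for 72 of the 77, against 3.45% of all genes. A median of at least 500 CPM was reached by 54 of the 77, against 0.47% of all genes, and 40 of the 100 genes with the highest median CPM were genes of the naming rule. Among the 74, the median CPM over the libraries was under 100 in 2 genes, 100 to 500 in 18, 500 to 1000 in 30, 1000 to 2000 in 16 and 2000 to 5000 in 8. The median over all 77 was 737 CPM. CPM is not divided by transcript length, and lengths were not used here, so the order of genes is one of read counts and not of transcript numbers.

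Among the large subunit genes, rplp0, the protein at the base of the P stalk, had the most reads, with 4659, 4603, 4555, 4645, 4222 and 4078 CPM in HN69 to HN74. Its 2 lowest values were those of HN73 and HN74, and its highest value was 1.14 times its lowest. rplp1, one of the acidic proteins that sit on rplp0, had 2814, 2779, 2714, 2733, 2489.7 and 2333 CPM. rplp2, the other acidic stalk protein, had 181, 169.8, 158, 171, 148 and 139.7 CPM, and a second symbol of that protein outside the naming rule, rplp2l, had 602, 617, 599.7, 604, 550.2 and 514 CPM. The 3 stalk genes of the rule together gave 9.74% to 9.94% of the counts of the ribosomal protein genes. That share varied little although their CPM was lower in HN73 and HN74 than in the other libraries. It came almost wholly from rplp0 and rplp1. rplp2 held 2.07 to 2.31 per mille of those counts, a wider ratio of highest to lowest of 1.11.

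The 5S particle, in which rpl5 and rpl11 join the 5S ribosomal RNA before it docks on the large subunit, is also known in vertebrates for holding back Mdm2, the ubiquitin ligase of p53. rpl11 had 2623, 2562, 2515, 2504, 2316 and 2161 CPM. rpl5 stood in the table under 2 identifiers: ENSDARG00000015862 had 1043, 1041, 1028, 1020.1, 972 and 949 CPM, and ENSDARG00000020197 had 955, 939, 949, 901, 873 and 824 CPM. Each of these rows was lowest in HN74. The first rpl5 row had the smallest ratio of highest to lowest CPM of any ribosomal protein gene with at least 100 counts in every library, 1.099, whereas the ratio of rpl11 was 1.21.

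Of the other large subunit genes, rpl7, whose protein lies beside the 5S RNA, had 4217, 4122, 4072, 4088, 3817 and 3638 CPM. rpl15, a protein of the subunit's core, had 2835, 2747, 2736, 2767, 2486 and 2408 CPM. rpl4, which lines the tunnel through which the new chain leaves, had 2125, 2157, 2059, 1994, 1927 and 1860.3 CPM. In each of these rows HN73 and HN74 were the lowest libraries. rpl3, which reaches toward the site of peptide bond formation, had 1976, 1994, 1920.4, 1864, 1806 and 1745 CPM, and rpl7a, a protein of the subunit's surface, had 2045, 1978, 1988, 1991, 1857 and 1743 CPM. The same 2 libraries were lowest here as well, with ratios of highest to lowest of 1.14 for rpl3 and 1.17 for rpl7a. rpl13 had 1205, 1203, 1182, 1145, 1097 and 1092 CPM, a ratio of 1.104. rpl22, whose product is known to be dispensable for translation at large but needed by developing T cells in mice, had 249, 252, 242, 249, 228 and 232 CPM, a ratio of 1.11. rpl22 was one of 5 genes of the 74 whose lowest CPM was not in HN74. At the low end of the large subunit, rpl29 had 132, 128, 123, 126, 113 and 101 CPM, a ratio of 1.30, and was lowest in HN74.

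In the small subunit, rps18, in the head of the subunit, had 2506, 2423, 2357, 2458, 2194 and 2040.4 CPM. Its highest value was 1.23 times its lowest, and HN74 was lowest. rps6, the substrate of the S6 kinases, had 1150.2, 1151, 1146, 1147, 1062 and 1007 CPM. rps19, needed for maturation of the small subunit and mutated in Diamond-Blackfan anaemia in human, had 664, 632, 626, 630.2, 562 and 551 CPM. HN69 to HN72 were close to one another for rps6, while rps19 was highest in HN69, and HN74 was lowest for both. rps23, a protein of the decoding centre, had 516, 489, 514, 496, 427 and 406 CPM, and rps28, a protein near the exit of the messenger RNA, had 309, 292, 302, 303, 260.3 and 236 CPM. These 2 had ratios of highest to lowest of 1.27 and 1.31, and rplp2 of 1.30, above most other ribosomal protein genes.

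**Figure D2:**
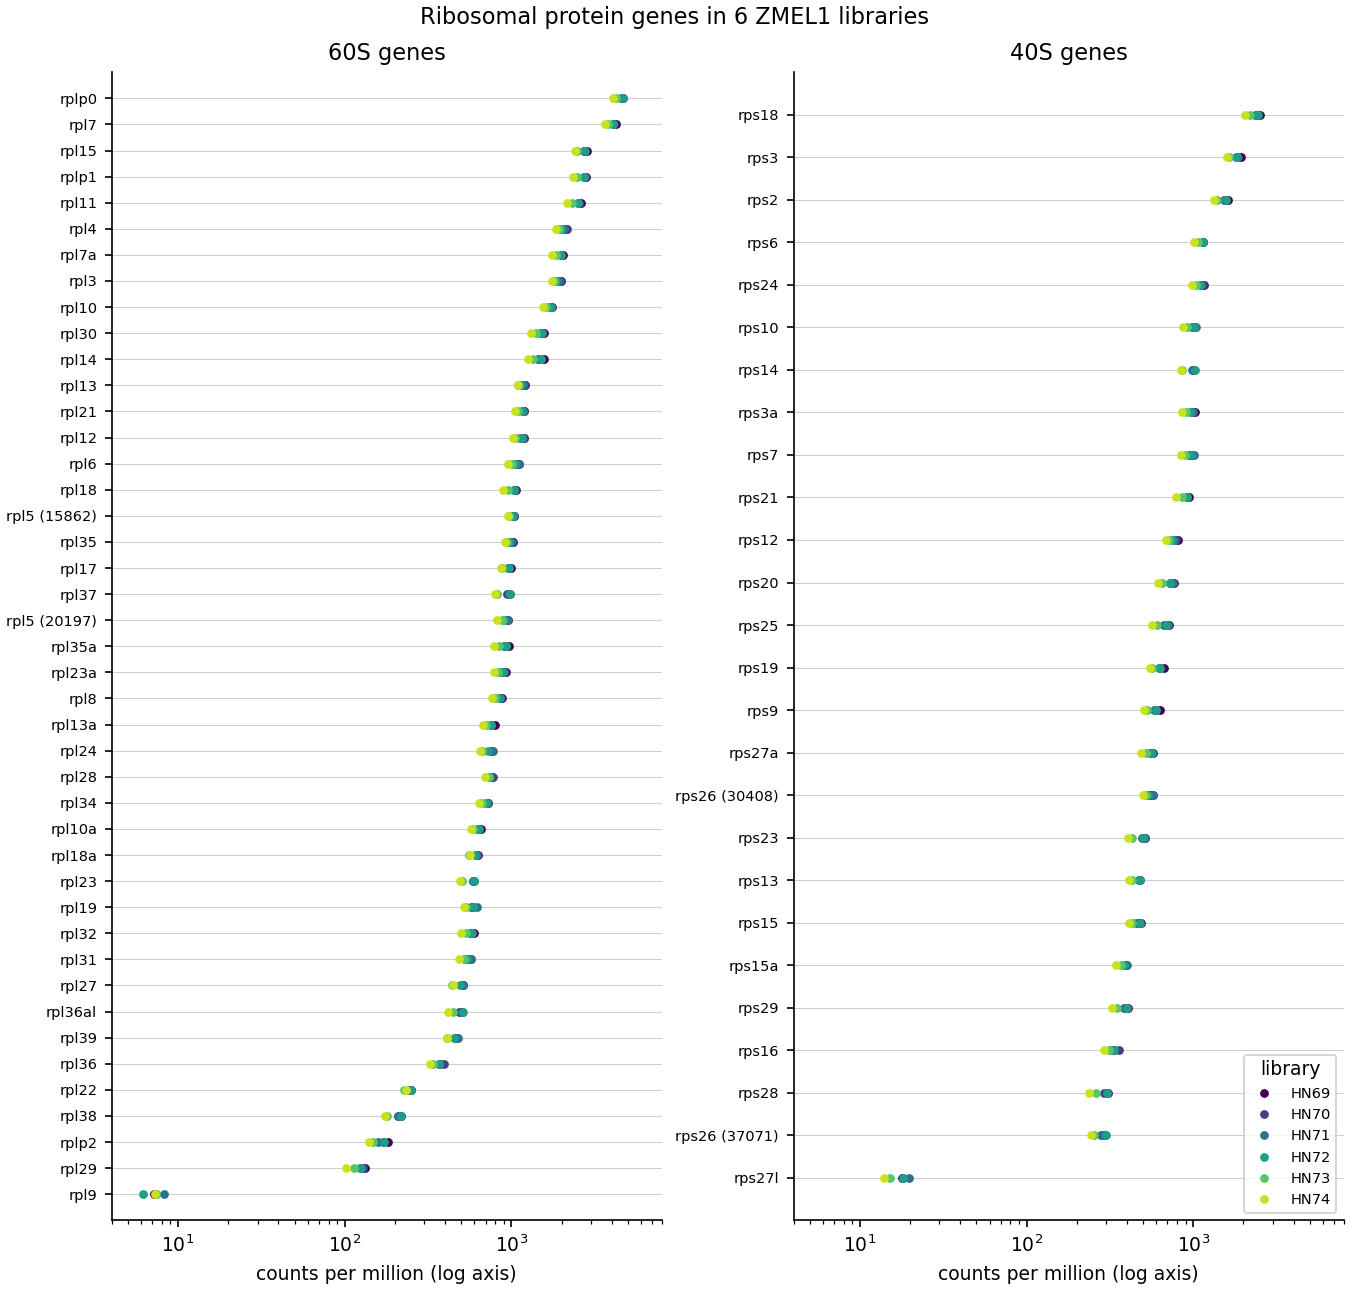
CPM (log axis) of ribosomal protein genes with at least 10 counts in every library, by subunit and ordered by median CPM, with a point for each of the 6 libraries; bracketed digits tell identifiers of the same symbol apart. The genes range from rpl9 at 7.31 CPM to rplp0 at 4579 CPM in the median, while the points of a gene lie close together.

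The 60S genes had a median of 913 CPM over 43 genes and the 40S genes a median of 587 CPM over 31 genes. Summed, the 60S genes gave 1.87 times the counts of the 40S genes in HN69, 1.89 in HN70, 1.87 in HN71, 1.87 in HN72, 1.90 in HN73 and 1.91 in HN74. The ratio was highest in HN73 and HN74, and its highest value was 1.02 times its lowest. Single genes did not all follow the sums: in HN74, 14 of the 43 large subunit genes had their highest share of the ribosomal protein counts and 7 their lowest, and 2 of the 31 small subunit genes had their highest share and 9 their lowest. The ratio rests on which rows carry a name of the rule: the genes of several 40S proteins (RPSA2, RPS4Y2 and rps27.1) stand outside it, and with those and other such names added, a choice made after seeing the data, it was 1.66 in the median. Each subunit's sum also rests on read counts, not transcript numbers.

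CPM was lowest in HN74 for 69 of the 74 genes, against 36.3% of all 12418 genes with at least 10 counts in every library, and highest in HN69 for 51 of the 74, against 33.7%. At a minimum of 1000 counts in every library, CPM was lowest in HN74 for 68 of 72 ribosomal protein genes (94.4%), against 67.1% of all 1123 genes, and highest in HN69 for 51 of 72 (70.8%), against 50% of all those genes. The low CPM in HN74 was thus shared by most genes of high count. In the same library the share of the 4 highest identifiers was largest. Their first pair was at its highest there, 33.8%, and the next pair at its lowest, 12.98%. CPM is a share of a fixed total, so a larger share for some rows leaves less for the rest. Whether this or anything else lowered the CPM of the ribosomal protein genes was not tested. The median ratio of highest to lowest CPM was 1.19 in the 74 ribosomal protein genes, with a range of 1.099 to 1.41, and 1.43 over the 12418 genes. With the 4 identifiers of the most counts left out of the totals, it was 1.08 in the ribosomal protein genes and 1.37 over all those genes. These sets differ in depth, with medians of 10863 and 167 counts, for which counting error alone gives 1.02 and 1.22. At a minimum of 1000 counts in every library, the median CPM ratios were close, at 1.183 in 72 ribosomal protein genes and 1.202 in 1051 other genes, or 1.083 and 1.120 without the 4 identifiers.

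Set against the sum of the ribosomal protein genes in the same library, most genes held a share that varied little. The highest share was a median of 1.05 times the lowest over the 74 genes, where counting error alone would give 1.02. At a minimum of 1000 counts in every library, the ratio to the summed ribosomal protein genes stayed under 1.1 in 66 of 72 ribosomal protein genes (91.7%) and in 203 of 1051 other genes (19.3%), against 24% of all 1123 genes past that minimum. The median ratio was 1.05 in the 72 and 1.15 in the 1051 other genes. The sets differ in depth, with medians of 10900 and 2123 counts, and the ribosomal protein genes are themselves part of the sum they are set against. In 71 of the 72 genes the ratio was above the one that counting error gives on average, a count not made for the other genes. In the median, counting error alone gives 1.02 in the 72 and 1.06 in the 1051 other genes. Both median ratios were thus above it, and the count does not set the ribosomal protein genes apart.

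**Figure D3:**
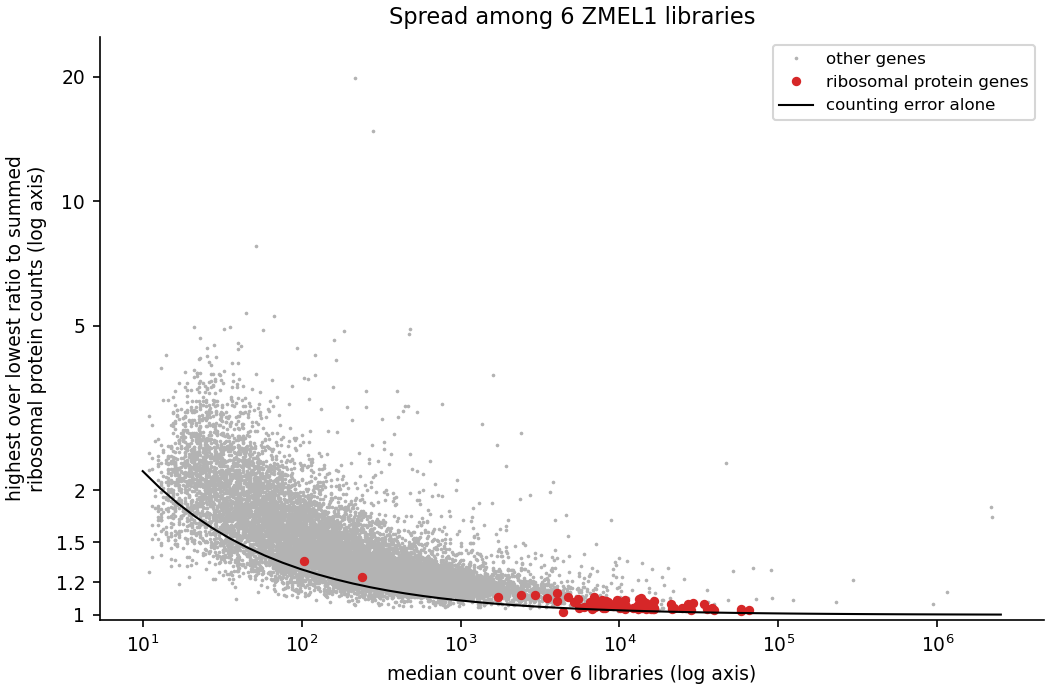
Ratio of highest to lowest value among the 6 libraries against read count, for genes with at least 10 counts in every library, after each gene was set against the summed ribosomal protein genes; ribosomal protein genes and other genes are marked apart, the line is the ratio that counting error alone gives, and both axes are log axes. The ribosomal protein genes lie at a median ratio of 1.05, against 1.39 over all genes past the minimum, which have fewer counts in the median.

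The share of the ribosomal protein counts held by rplp0 was 59.5, 60.03, 59.7, 61.2, 60.4 and 61.0 per mille in HN69 to HN74, a ratio of highest to lowest of 1.03. That of rpl7 was 53.8, 53.8, 53.4, 53.9, 54.6 and 54.5 per mille. On this scale HN73 and HN74 were no longer the lowest libraries for either gene. rps28 held 3.94, 3.80, 3.96, 3.99, 3.72 and 3.53 per mille and rps23 6.59, 6.38, 6.73, 6.54, 6.11 and 6.08 per mille, so that both were still lowest in HN74. rpl13 held 15.4, 15.7, 15.5, 15.1, 15.7 and 16.3 per mille, and rpl22 3.18, 3.28, 3.17, 3.28, 3.25 and 3.47 per mille. Both of these were highest in HN74. The 10 genes with the most reads together held 38.1% to 38.5% of the ribosomal protein counts in every library. Among the 74 genes the share varied most in rpl9, by a factor of 1.35, and in rps27l, by 1.23, the 2 with the fewest counts. Under a factor of 1.1 lay 66 of the 74 (89.2%), against 3.01% of all 12418 genes with at least 10 counts in every library. Those genes have fewer counts in the median, and the 74 are part of the sum they are set against.

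**Figure D4:**
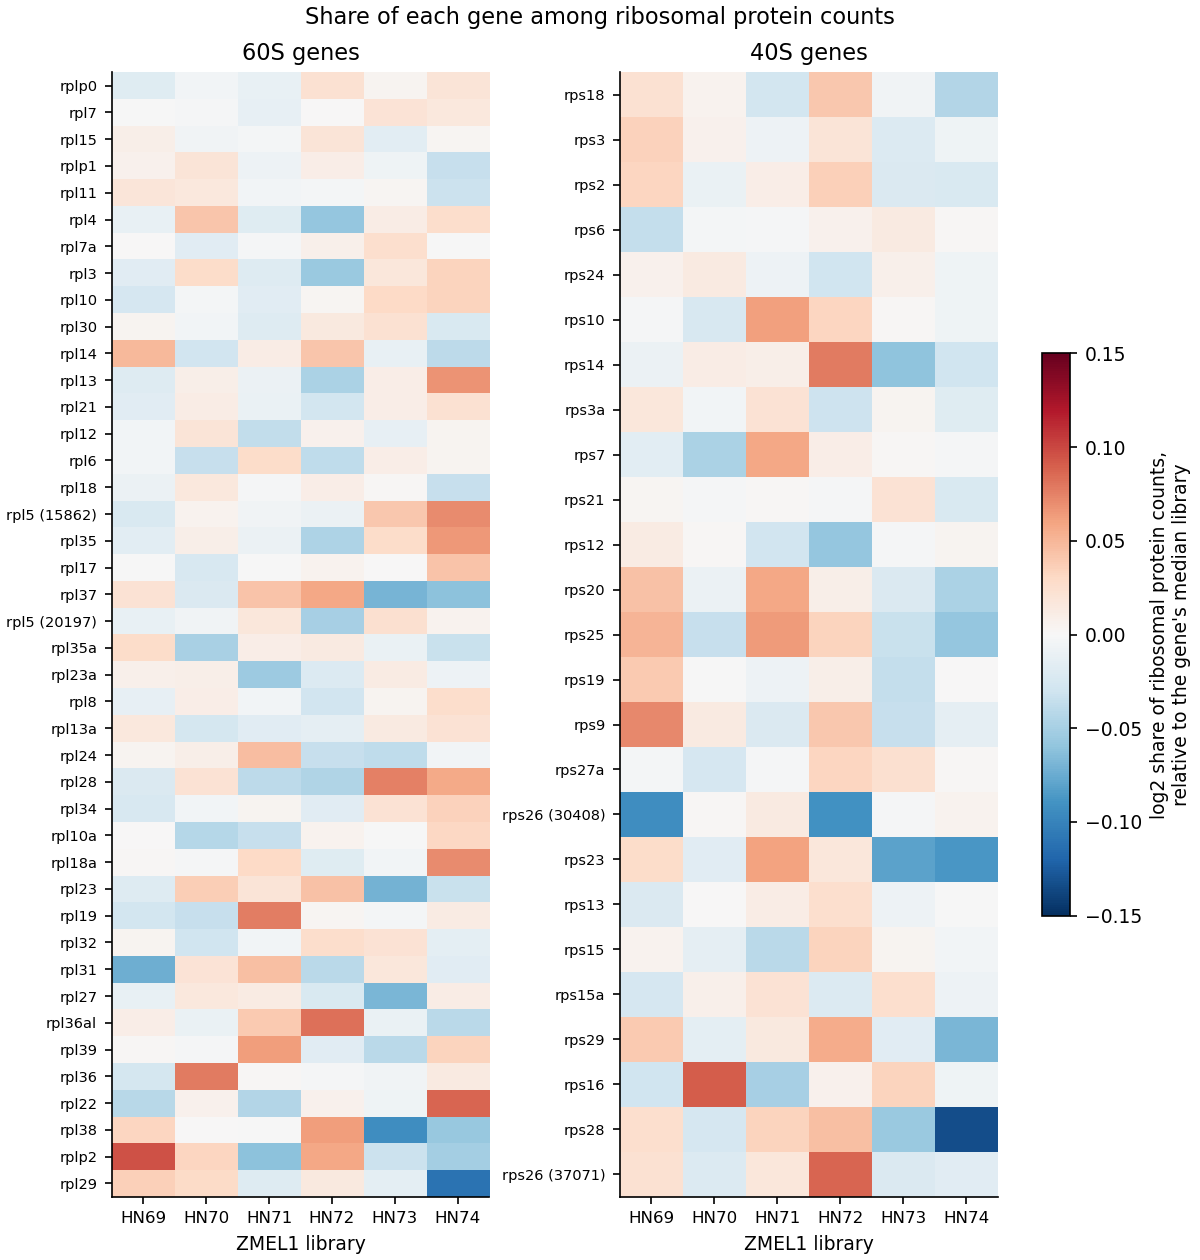
Share of the summed ribosomal protein counts held by genes with at least 1000 counts in every library, as the log2 difference (color) from that gene's median over the 6 libraries; bracketed digits tell identifiers of the same symbol apart. rps28 and rps23 were lowest in HN74 and rpl13 and rpl22 highest there, while rplp0 stayed within a factor of 1.03.

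Several ribosomal proteins were counted under a pair of rows, whose sequences can be nearly identical, so that the counting could split or drop reads between them and the shares below are uncertain to that extent. In the rpl5 pair, ENSDARG00000015862 took 52.2%, 52.6%, 52.0%, 53.1%, 52.7% and 53.5% of the pair in HN69 to HN74. That copy was slightly ahead in all 6 libraries, with every exact 95% interval above 50%. In the rps26 pair, ENSDARG00000030408 took 65.1%, 67.3%, 66.9%, 64.1%, 67.2% and 67.3%. HN69 and HN72 lay below the other libraries there, and the exact (Clopper-Pearson) 95% interval of HN72, 63.3% to 65.0%, did not meet that of HN70, 66.5% to 68.0%. That row had 549.7, 574, 576, 533, 523 and 502 CPM, and the other row, ENSDARG00000037071, had 295, 279.5, 285, 298, 255 and 244 CPM. The other row was highest in HN72 and HN69, where the first was below HN70 and HN71.

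For the acidic stalk protein, rplp2l took 76.9%, 78.4%, 79.1%, 77.9%, 78.8% and 78.6% of the reads of rplp2l and rplp2, so the symbol that the rule takes held the smaller part. rpl22 took 61.5%, 63.2%, 61.3%, 61.8%, 61.6% and 64.3% of the reads of rpl22 and its paralog rpl22l1. The pair was thus shared, with rpl22 ahead in all 6 libraries and highest in HN74. rps27.1 took 82.4%, 82.3%, 82.6%, 82.4%, 82.3% and 82.4% of the reads of rps27.1 and rps27.2, the most even split of the pairs. The rest were lopsided: rpl7l1, a paralog of rpl7, held 1.14% to 1.35% of its pair, faub held 2.44% to 3.02% beside fau, and rps27l, a paralog known in human as a p53 target, held 1.55% to 1.94% beside rps27.1.

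**Figure D5:**
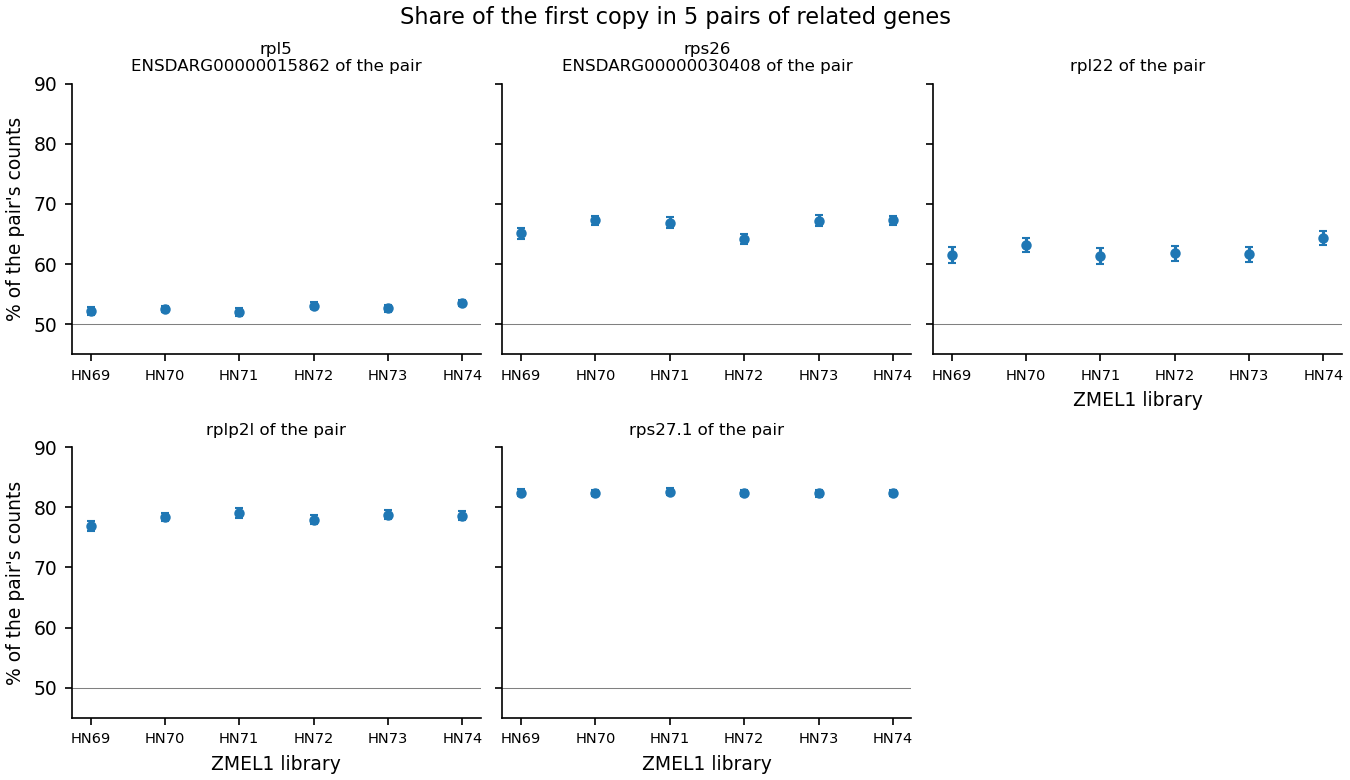
Percent of a pair's counts taken by its first-named copy in each of the 6 libraries, with exact (Clopper-Pearson) 95% intervals that cover counting error; the y axis does not start at 0 and a line marks 50%. rpl5 lies at 52.0% to 53.5%, rps26 at 64.1% to 67.3%, rpl22 at 61.3% to 64.3%, rplp2l at 76.9% to 79.1% and rps27.1 at 82.3% to 82.6%.

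A few ribosomal protein genes had far fewer reads than the rest. rps27l had 17.8, 18.1, 19.6, 18.2, 15.2 and 14.0 CPM. rpl9, a protein of the large subunit near the base of the stalk, had 95, 138, 101, 92, 107 and 124 counts in HN69 to HN74, or 6.14 to 8.20 CPM. These 2 were the lowest of the 74 genes by median CPM, with rpl29 at 124 CPM the next above them. rpl26, a protein near the end of the exit tunnel, had 2, 3, 0, 0, 2 and 7 counts in its row ENSDARG00000102317. It was at or near 0 in every library, and no fold is given for it. Whether the reads of rpl9 and rpl26 were lost to other copies in the counting was not tested.

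Some proteins of the same ribosome stood outside the naming rule and were close in read count. rack1, the scaffold protein on the head of the small subunit, had 1751, 1730.2, 1767, 1746, 1589 and 1560.3 CPM. fau, which makes a ubiquitin-like protein fused to a 40S protein, had 381 to 434 CPM. Both were lower in HN73 and HN74 than in the other libraries. rps27a, a ubiquitin fusion inside the rule, had 569.7, 549, 555, 565, 518 and 488 CPM. RPSA2 had 1312 to 1536 CPM, RPS4Y2 had 1190.2 to 1316 CPM and rps27.1 had 888 to 1069.8 CPM, each within the range of the 40S genes of the rule.

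The translation elongation factors, which carry transfer RNAs and move the ribosome, were found for 9 of 15 listed names and gave 2.44% to 2.71% of all counts. eef1a1l1 had 15059 to 16622 CPM and eef2b 8081 to 9071 CPM, and against the ribosomal protein counts the factors stood at 33.9% to 36.5%. The 75 genes of mitochondrial ribosomal proteins, which serve the separate ribosome of mitochondria, all passed 10 counts in every library and gave 0.120% to 0.142% of all counts. Their median gene was at 11.2 CPM, against 737 CPM for the cytosolic genes, and their sum was 1.71% to 1.83% of the cytosolic sum. Their median ratio of highest to lowest CPM was 1.36, against 1.19 in the cytosolic genes, with counting error alone giving 1.22 in the median at their lower counts. The 13 mitochondrially encoded transcripts gave 1.03% to 1.38% of all counts, highest in HN69.

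Outside the genes of the naming rule, 6988 genes with at least 100 counts in every library were searched. Among them were ribosome proteins outside the rule, such as rack1. The CPM patterns most like that of the summed ribosomal protein genes over the 6 libraries were those of nmrk2, lats2 and si:dkey-151g10.6. The rule leaves out names with a colon, and whether si:dkey-151g10.6 encodes a ribosomal protein was not tested. The correlation of log2 CPM (Pearson r) was 0.995 for nmrk2, a nicotinamide riboside kinase, 0.993 for lats2, a kinase of the Hippo pathway, and 0.993 for si:dkey-151g10.6. nmrk2 had 950.4, 941, 929.9, 917, 860.0 and 819 CPM in HN69 to HN74. The points share library totals, 127 genes had r above 0.95, and with 6 libraries this is a description only.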

How the data were processed

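Bulk RNA-seq of ZMEL1 cells was measured in 6 samples. The authors deposited raw counts per Ensembl gene, not normalized, in 1 table; per the submitters' processing notes, reads were trimmed with cutadapt, aligned with TopHat2 2.1 to GRCz11 and counted with HTSeq. Strand and multi-mapping settings are not given in the sources used here. The labels name polyA RNA as the molecule while their extraction protocol describes ribosomal RNA depletion, which bears on the share of non-polyadenylated RNA in the totals. The labels call the samples a technical triplicate, so the spread may be technical.

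Symbols were looked up for 29201 of 32520 identifiers. CPM is the count over all counts of a library, times 1000000; depth was 12319428 to 18582009 counts. A minimum of 10 counts in every library was set for ratios. The ratio of highest to lowest that counting error alone gives was computed from Poisson counts, and the procedure was tested on simulated data. No model was fitted for lack of known groups; edgeR 4.0.16 (TMM) and DESeq2 1.42.0 (median of ratios) gave scaling factors only. Python 3.11.15 and pandas 2.3.3 were used. Values in every library were given for the 10 genes with the most and the 5 with the fewest reads by median CPM. They were also given for the 5 with the widest and 3 with the narrowest CPM ratio at a minimum of 100 counts. The P stalk, the 5S particle, rps6 and rps19 were given in the same way. All pairs of copies were given by share, the lopsided ones as ranges only. rps27a and the CPM of the rps26 rows were chosen after their values were seen. Some genes that these rules name are counted in the sums but not reported here by name, in text or figures. The genes and lists were chosen with earlier results of these data known. Alternatives were other naming rules, totals, scalings, count minimums and leaving out each library. Promoter letters were not used here.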

Additional observations from a re-analysis of the deposited data

Results flagged for a closer look

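In 2 of 56 values examined, a single library stood apart from the other 5 by more than Dixon's 95% limit; chance alone gives about 1 in 20. The share of rps6 in the ribosomal protein counts was lowest in HN69, at 14.7 per mille, with the other libraries at 15.01 to 15.19 per mille. The share of rps27.1 in its pair with rps27.2 was highest in HN71, at 82.6%, with the other libraries at 82.3% to 82.4%. Both gaps are small beside the level, and no cause was tested.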

How the results depend on the processing

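Of 67 recomputed values, 50 stayed within the spread between libraries or, for numbers of genes, within 1.5 times. All recomputed numbers of genes, 67 to 84 against 74, were among the 50. Leaving out a library can only raise that number, to 77 at most, so those values could not pass the limit of 1.5 times. The other naming rules gave 69 to 87 identifiers, so theirs could hardly do so. The share of all counts, 7.61% in the median, was 8.22% with other ribosomal protein names added (87 identifiers), 14.9% without the 20 other genes of the most counts and 12.6% without the 4 highest identifiers. The ratio of 60S to 40S counts, 1.88, was 1.80 with copy marks added (81 identifiers), 1.96 without symbols of several identifiers (69) and 1.66 with the other names. The median CPM of 737 was 1469 without the 20 genes and 1243 without the 4. The median ratio of highest to lowest CPM, 1.19, was 1.08 without the 4 identifiers, 1.12 with TMM and 1.12 with median of ratios, and 1.13 to 1.19 leaving out each library, the lowest without HN74. The median log2 range of a gene's share, 0.0764, was 0.0822 with the other names and 0.0661 to 0.0741 leaving out each library. Leaving out a library cannot widen the ratio or range of a gene, so any fall in these results is built in. For the last pair of results the spread is the SD over the values with a library left out. It is thus no independent limit for those values. Adding other names and leaving out the 4 identifiers were chosen after seeing the data.

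No paired analysis was possible because the columns carry no replicate number and no treatment. Depth limits the rows with few counts: rpl26 lies near the limit that a count of 0 allows.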
